A study of Neurospora crassa with 24 samples.

Results

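The genes described here are 93 genes of Neurospora crassa whose mRNAs belonged to aerial tissue in the wild type and were more abundant still in the aerial tissue of a Δve-1 mutant kept in the dark. They were taken from the 9758 genes of the count table. They were selected on their measured levels in CPM, the count of a gene scaled to the total of its library. A member had a mean of at least 10 CPM in dark wild-type aerial tissue, at least 8 times its mean in submerged mycelia of the wild type (0.2 CPM added to both means), and a mean in dark mutant aerial tissue at least 2 times that of the wild type. Of 398 genes that met the first 2 criteria, 165 lay between 0.5 and 2 times the wild type in the mutant and are called the other aerial genes, and 133 lay below 0.5 times. The rule left out 8 well-known genes of conidiation, and 5 of these met all of its criteria.

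VE-1 of N. crassa belongs to the velvet family, fungal regulators of transcription that link light to development and secondary metabolism. In Aspergillus nidulans its counterpart VeA enters the nucleus and acts in a complex with VelB and LaeA. N. crassa conidiates by sending aerial hyphae into the air, which bud at their tips and form chains of orange macroconidia. The transcription factor FL drives this program, the hydrophobin EAS coats the aerial hyphae and spores, and the con genes are transcribed as conidia form.

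The series held 24 poly(A) RNA-seq libraries in 10 groups, from a wild type and a Δve-1 deletion strain, both in the OR74A background. A15 was aerial tissue collected after 15 h on solid medium, either in constant dark or with the last 30 min in white light, with 2 libraries for each strain and light condition. S was mycelia submerged for 24 h in shaken flasks in the dark, with 4 libraries per strain, and V was vegetative mycelia grown for 48 h in liquid plates, dark throughout or with the last 30 min in light, with 2 libraries for each strain and light condition. By the study's methods V was also grown at another temperature than S and A15, while the labels give the same temperature for all samples. A15 is a mixture of aerial hyphae and developing conidia, so that more conidia and more mRNA per conidium cannot be told apart in it. The deletion is represented by a single genotype, with no complemented strain, and the labels do not say that replicates came from separate cultures, so p-values measure the spread between these libraries.

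Each library held 14010994 to 21885041 counts, and 3 counts, the limit used for genes that were not detected, corresponded to 0.137 to 0.214 CPM. The deleted gene ve-1 (NCU01731) gave 66.1 to 283 CPM in the wild-type libraries and 0.883 to 12.7 CPM in the mutant libraries, where replicate 1 of S held the highest value. The 6 aerial markers eas, con-6, con-8, con-10, con-13 and fl summed to between 52775 and 181351 CPM in A15, and eas alone took 4.07% to 17.4% of the counts there. In S the same list summed to 50.5 to 476 CPM. Of 6 genes of sexual tissue (poi-2, asd-1, asd-4, app, sub-1 and fmf-1), fmf-1 was at 0 in all groups except dark mutant A15, and the list summed to 213 to 613 CPM in A15 and 173 to 638 CPM in V.

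The rule used the dark A15 libraries of both strains and the S libraries of the wild type. All values that involve those groups are given as a description. Tests were made in groups that entered no part of it, which are A15 after light, V, and S of the mutant. They used edgeR on the counts of all genes that passed a filter on low counts. A gene was called at a Benjamini-Hochberg adjusted P under 0.05, and log2FC is the fitted log2 fold change.

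The 93 members held 2.44% and 1.35% of the counts in the 2 dark wild-type A15 libraries and 4.98% and 5.57% in the dark mutant libraries. In S they held at most 0.117%. The median member lay at 58.2 CPM in dark wild-type A15 and at 154 CPM in the dark mutant, and the median ratio of the mutant to the wild type was 2.69. At the edges of the rule, gh64-2 (NCU06505, a glucanase) passed the level criterion with 10.55 CPM, and aqp (NCU08052), named as an aquaporin gene, missed it with 9.801 CPM. NCU00766 passed the criterion on S with a ratio of 8.037, and NCU09057 missed it with 7.878. NCU01063 passed the criterion on the mutant with a ratio of 2.006, and tnr-1 (NCU09390) missed it with 1.997.

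The choice of members leaned on few libraries. The median member was 1.09 log2 units higher in replicate 1 of dark wild-type A15 than in replicate 2, and 92 of the 93 were higher in replicate 1. Without replicate 2 the rule found 61 genes, 48 of them among the 93. Only 21 members were at least 2 times higher in each dark mutant library than in each dark wild-type library. In the mutant, the SD of the log2 ratio between the 2 dark A15 replicates was 1.21 over the members, against 0.488 between its 2 light replicates.

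**Figure D1:**
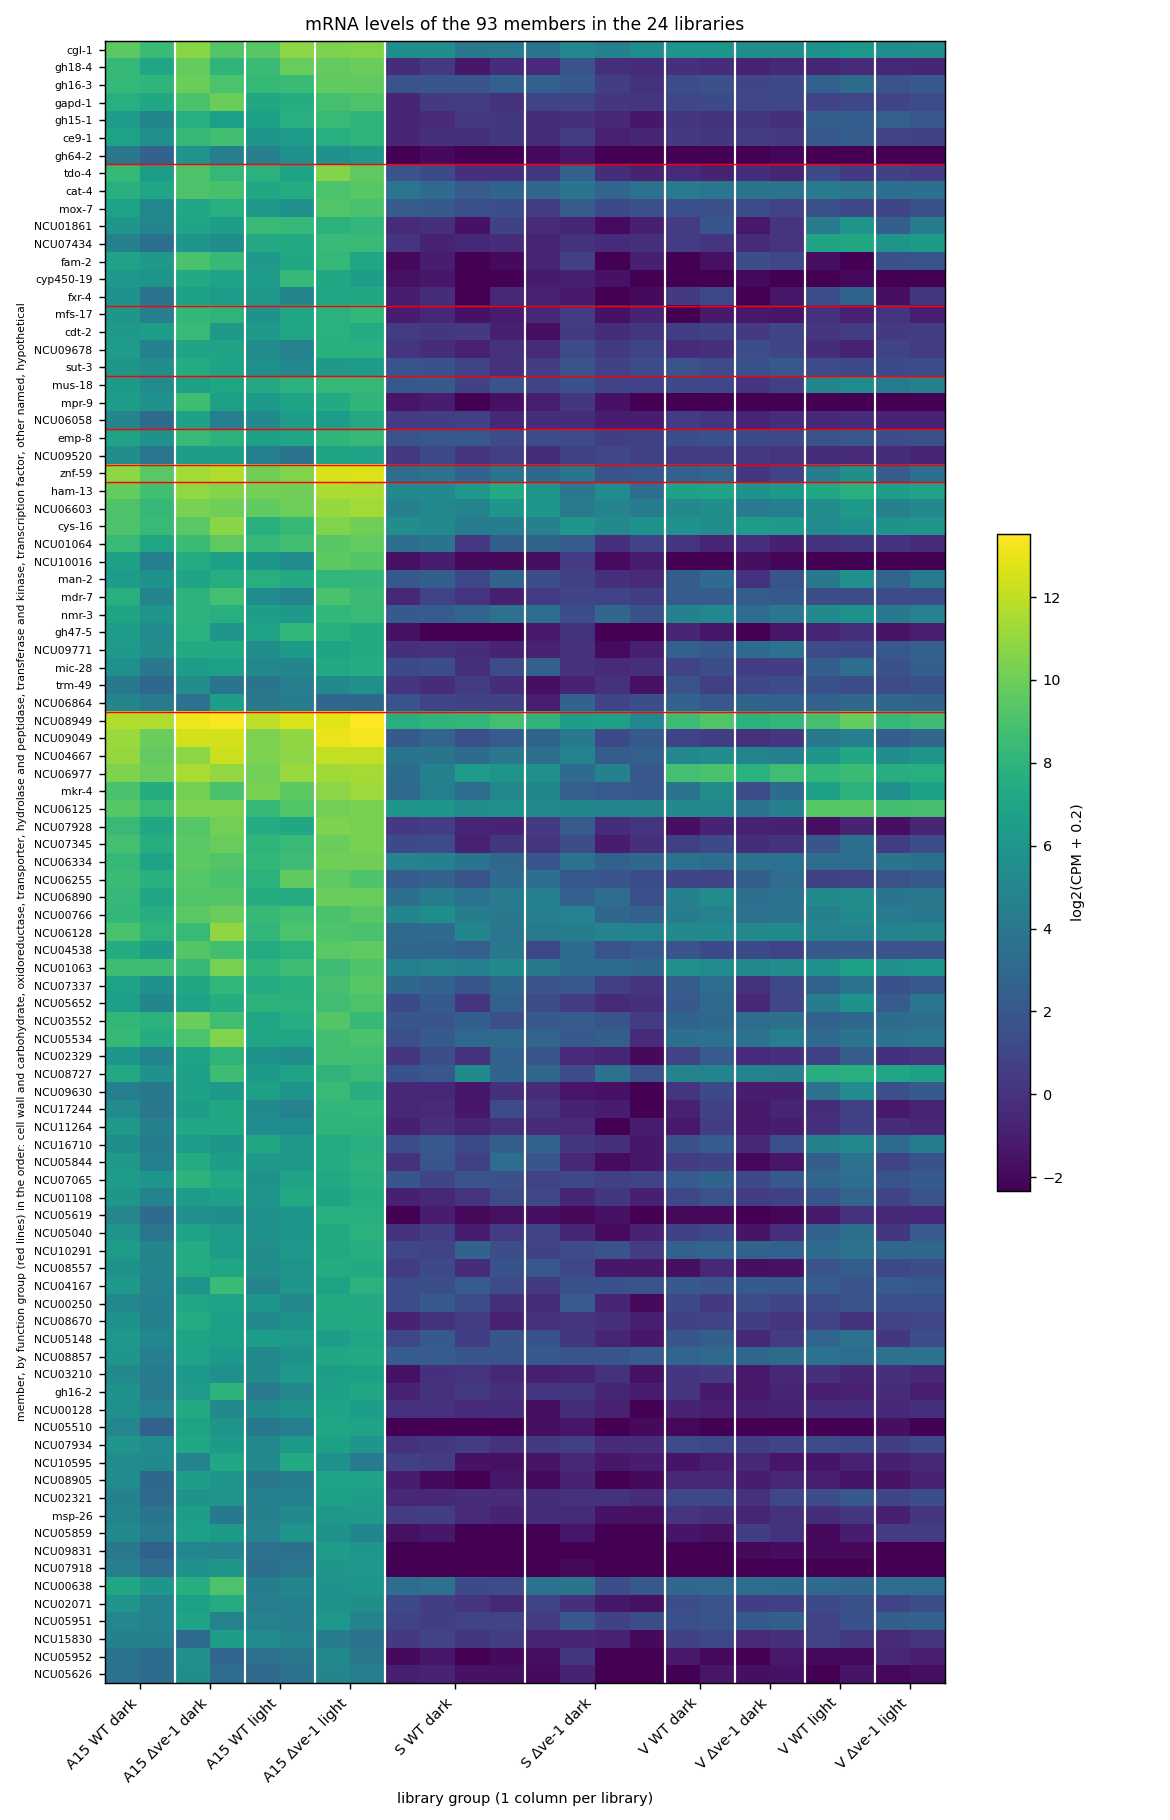
Levels of the 93 members in the 24 libraries. Colour gives log2(CPM + 0.2), each column is 1 library, white lines separate the 10 groups, and red lines separate the function groups in the order given on the axis. The A15 columns on the left are bright for all members, with medians of 58.2 to 227 CPM by group, and the S and V columns are dark for most, with medians of 1.32 to 3.98 CPM.

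By the text of their gene products, 38 members had a named product and 55 were hypothetical proteins or had no product text. Keywords in that text sorted the named products, each by its first match, so a group can miss members of its kind. The named products comprised 8 oxidoreductases, 7 proteins of the cell wall or carbohydrate metabolism, 4 transporters, 3 hydrolases or peptidases, 2 transferases or kinases, 1 transcription factor and 13 others. Only 6 members carried a symbol in the RefSeq annotation. They were cat-4 (a catalase), cdt-2 (a sugar transporter), gh18-4 (a chitinase), gh47-5 (an alpha-mannosidase that trims N-glycans), cys-16 and mus-18. The product of cys-16 is cystathionine gamma-lyase, which cleaves cystathionine to cysteine. That of mus-18 is an endonuclease that starts the repair of UV damage in DNA. Another 25 had a symbol in the study's gene lists, which made 31 in all.

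The members lay on all 7 chromosomes. Chromosome VI held 19 (1.92% of its genes) and chromosome VII held 18 (1.72%), against 11 on chromosome I (0.469%). As a description, 16 members (17.2%) were next to another member in gene order, in 8 pairs, and the share among the other aerial genes was 15.2%. Among these pairs were fam-2 and NCU05859 on chromosome VII, gapd-1 and emp-8 on chromosome VI, gh16-2 and NCU04167 on chromosome V, and NCU17244 and NCU02329 on chromosome VII, the last separated by 162 bp and transcribed in opposite directions. The spans of 13 members overlapped an annotated neighbour. By the study's methods, reads were counted by strand.

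Levels of the members in A15 were set side by side in dark and light. Light wild-type A15 had a median of 90.1 CPM and light mutant A15 a median of 227 CPM. The median log2 ratio of light to dark was 0.26 in the wild type, against 0.40 in the mutant, beside 0.17 and 0.21 over all genes tested in A15. Single members ranged from -2.10 to 3.10 in the wild type, and from -2.77 to 2.61 in the mutant. These ratios use the dark groups that chose the members and were not tested. The sample codes number the dark A15 libraries 1 and 2 and the light ones 3 and 4. What a code marks is not stated, so light and code cannot be told apart in these ratios.

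After light, the strains could be compared in A15 libraries that the rule had not used. Here 87 of the 93 members had a fitted log2FC above 0, with a median of 1.56 (2.94-fold) and a range of -1.53 to 3.82, beside a median of -0.03 over the 8193 genes tested. The edgeR test called 26 members higher in Δve-1 and 0 lower, and 62 members had an unadjusted p under 0.05. The background of calls was 1.75% higher and 2.90% lower over all genes tested, 4.65% in either direction. At a stricter rule, an adjusted P under 0.001 and a log2FC of at least 2 in size, 0 members and 0 genes were called higher. Of the 165 other aerial genes, 9 were called higher and 2 lower, with a median log2FC of 0.20. In 77 of the 93 members both mutant libraries were above both wild-type libraries, which was the case for 24.6% of all genes tested, and in 3 members both were below, against 35.8%.

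The number of calls depended on single libraries. No member was called without replicate 1 of the wild type, without replicate 1 of the mutant or without replicate 2 of the mutant (0 each), and 9 were called without replicate 2 of the wild type. With the mutant libraries left out in turn, 2 genes were called among all those tested in each case. The sizes moved less, with a median log2FC of the members of 1.32 to 1.83 over all the alternatives, and 84 to 90 members above 0 when each library was left out. DESeq2 called 50 members higher and edgeR on the 2 light groups alone called 49.

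The markers of aerial tissue overlapped between the strains in their sum after light. The 6 aerial markers summed to 52775 and 128079 CPM in the wild-type libraries and to 125078 and 151189 CPM in the mutant libraries, all 6 had a fitted log2FC above 0, and none was called. Single libraries overlapped in eas, fl and con-10. Without eas the sums were 12055 to 14653 CPM in the wild type and 21927 to 25894 CPM in the mutant. Their part in the difference of the members was not tested. The 6 sexual markers summed to 543 and 613 CPM in the wild type and to 213 and 293 CPM in the mutant.

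**Figure D2:**
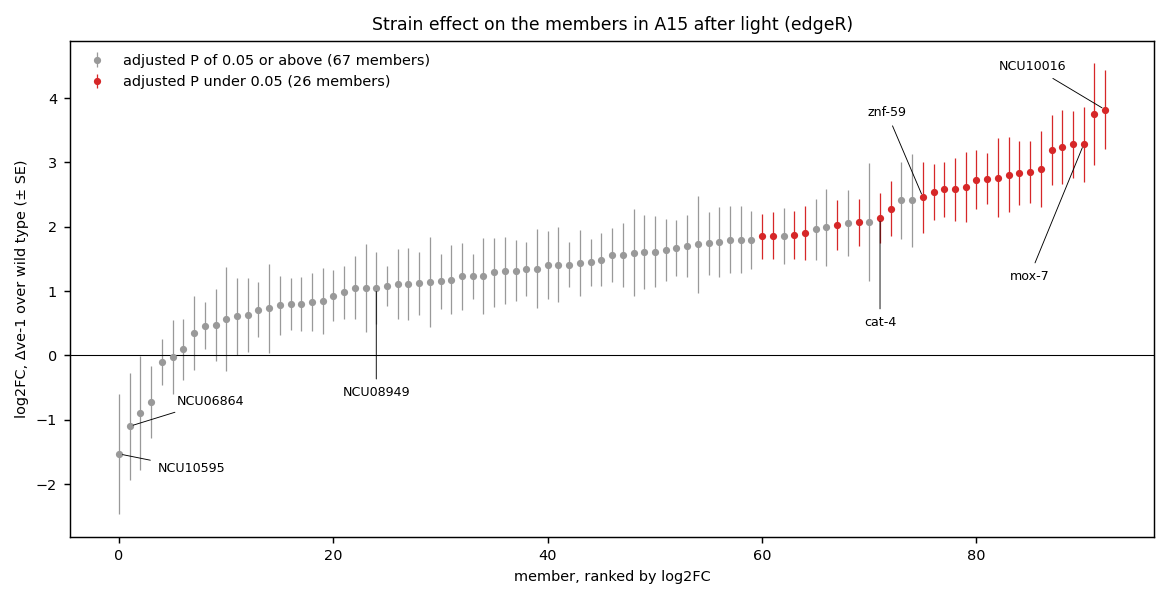
Strain effect on the 93 members in A15 after light. Points are fitted log2FC of Δve-1 over wild type with their SE, ranked from lowest to highest, and red points passed an adjusted P of 0.05. The values ran from -1.53 to 3.82, 87 lay above 0, and the 26 red points all lay above 1.8.

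The members with the largest difference after light included 2 that lie close together on chromosome VII. NCU10016 (1287974 to 1289425, in the coordinates of the count table, NC12), annotated as a desulfurizing enzyme family protein, stood at 66.8 and 40.6 CPM in the wild type and at 740 and 622 CPM in the mutant. Its log2FC was 3.82 (SE 0.613, adjusted P = 0.0227, edgeR). The gene lies within NCU15835 on the other strand, whose group means were 71.8 CPM in the wild type and 75.2 CPM in the mutant. The end of NCU15835 also overlaps the second gene, mox-7 (NCU10015, 1285293 to 1287942), a monooxygenase gene, by 30 bp. It had 77.8 and 49.0 CPM in the wild type and 609 and 500 CPM in the mutant, with a log2FC of 3.28 (SE 0.581, adjusted P = 0.0274, edgeR). For both genes the 2 light mutant libraries were above all other libraries of the series.

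A taurine dioxygenase gene and a gene of cysteine synthesis are given for their values. For tdo-4 (NCU07610), of an enzyme class that releases sulfite from taurine, the wild type held 229 and 119 CPM and the mutant 1565 and 797 CPM, and it was called higher (log2FC 2.90, adjusted P = 0.0345, edgeR). This gene was picked out after its values had been seen. For cys-16 (NCU09230) the values were 213 and 318 CPM in the wild type and 1508 and 1090 CPM in the mutant, with a log2FC of 2.41 that missed the threshold (SE 0.598, adjusted P = 0.0580, edgeR). The 2 strains did not overlap for either gene.

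The drug efflux transporter gene mdr-7 (NCU01095) had the second largest difference. It stood at 42.4 and 28.3 CPM in light wild-type A15 and at 498 and 358 CPM in the mutant (log2FC 3.75, SE 0.791, adjusted P = 0.0383, edgeR). In dark wild-type A15 its 2 libraries were far apart, at 199 and 29.4 CPM. The divergent pair NCU17244 and NCU02329, both hypothetical, completed the 5 largest. NCU17244 went from 37.7 and 26.2 CPM to 272 and 284 CPM (log2FC 3.28, adjusted P = 0.0227, edgeR), and NCU02329 from 55.6 and 43.3 CPM to 430 and 411 CPM (log2FC 3.24, adjusted P = 0.0265, edgeR).

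By the keywords, which sorted NCU06864, named after a yeast regulator, elsewhere, 1 member was a transcription factor, and it was called higher. znf-59 (NCU05143, chromosome VI, 3586229 to 3588999), a zinc finger protein, had 1087 and 1461 CPM in light wild-type A15 and 6043 and 6620 CPM in the mutant, a log2FC of 2.46 (SE 0.554, adjusted P = 0.0443, edgeR). Per kb of gene span, introns included, it came after 3 other members in light mutant A15, with 2285 CPM per kb. In the dark the mutant libraries held 2622 and 3300 CPM, so that the light libraries of the mutant were the highest of the series for this gene.

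The most abundant members were mostly proteins of unknown function. NCU08949 had the highest group mean in A15 of both strains, with 3932 and 6270 CPM after light in the wild type and 7103 and 11872 CPM in the mutant, and it alone made up 19.6% and 13.8% of the members' counts in these 2 groups. Its groups did not overlap, but the difference was not called (log2FC 1.05, SE 0.563, adjusted P = 0.325, edgeR). NCU09049 followed in the mutant, at 8658 and 9813 CPM against 1373 and 1948 CPM, and lay above NCU08949 in replicate 1. It was called higher (log2FC 2.62, adjusted P = 0.0360, edgeR). Per kb of gene span the order in light mutant A15 was NCU08949 (5597 CPM per kb), NCU09049 (4955) and mkr-4 (2602).

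Of the other 5 members among the 8 most abundant, none was called. NCU04667 had a log2FC of 1.60, ham-13 (NCU06265, annotated for hyphal anastomosis, the fusion of hyphae) 1.56, NCU06603 (of the ThiJ/PfpI family) 1.49, mkr-4 (NCU06597) 1.23 and NCU06977 0.78. The adjusted P was 0.0693 for ham-13, 0.0790 for NCU06603 and above 0.2 for the other 3. In ham-13 the wild type held 1181 and 1085 CPM and the mutant 3053 and 2984 CPM.

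The catalase gene cat-4 (NCU05169), which breaks down hydrogen peroxide, held 138 and 170 CPM in light wild-type A15 and 523 and 696 CPM in the mutant and was called higher (log2FC 2.14, SE 0.389, adjusted P = 0.0281, edgeR). mus-18 (NCU08850) held 149 and 231 CPM in the wild type and 303 and 298 CPM in the mutant, with a log2FC of 0.80 that was not called (adjusted P = 0.316, edgeR). Of the 8 oxidoreductases, 3 were called higher (cat-4, mox-7 and tdo-4), and the median of the group was 1.42.

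Of the 7 members that keywords sorted under the cell wall and carbohydrate metabolism none was called. All 7 had a log2FC above 0 (0.35 to 1.80), and their median was 1.12. The keywords left out gh16-2, man-2 and gh47-5, with log2FC of 2.41, 0.80 and -0.03, none of them called. In gh15-1, gh16-3, gh64-2, ce9-1 and gapd-1 both mutant libraries were above both wild-type libraries. The glucanase gene gh16-3 (NCU04431) held 322 and 354 CPM in the wild type and 826 and 803 CPM in the mutant (log2FC 1.41, adjusted P = 0.0580, edgeR). The chitinase gene gh18-4 (NCU04883) overlapped between the strains, with 360 and 933 CPM in the wild type and 843 and 959 CPM in the mutant (log2FC 0.61, adjusted P = 0.614, edgeR). So did cgl-1 (NCU07523, annotated as a glucanase of conidia and picked after its values had been seen), with 671 and 1773 CPM against 1362 and 1490 CPM.

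A group of linked genes on chromosome VI belongs to the use of N-acetylglucosamine, the sugar of chitin. ce9-1 (NCU04725, 553870 to 555498) encodes N-acetylglucosamine-6-phosphate deacetylase and gapd-1 (NCU04727, 564912 to 566863) a glucosamine-phosphate deaminase, enzymes that act in sequence to make fructose-6-phosphate. emp-8 (NCU04728, 568289 to 570540) is annotated as a hexokinase. They were looked at after their values had been seen. In light A15, ce9-1 had 68.2 and 87.1 CPM in the wild type and 198 and 256 CPM in the mutant. gapd-1 had 140 and 181 CPM in the wild type and 466 and 545 CPM in the mutant. For emp-8 the wild type held 107 and 128 CPM and the mutant 264 and 313 CPM. The strains did not overlap in any of the 3, with log2FC of 1.70 (SE 0.480), 1.80 (SE 0.518) and 1.45 (SE 0.366). Each missed the threshold in edgeR (adjusted P = 0.0820, 0.0859 and 0.0600), and each passed it in DESeq2 (adjusted P = 0.00984, 0.00850 and 0.00327) and with edgeR on the 2 light groups alone (adjusted P = 0.0368, 0.0316 and 0.0411). NCU04726, which lies between ce9-1 and gapd-1 and is no member, ranged from 36.9 to 99.7 CPM over the 8 A15 libraries.

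Among the regulators and transporters, nmr-3 (NCU09403, of the nitrogen metabolite regulation family) was called higher after light, with 96.1 and 73.6 CPM in the wild type and 290 and 344 CPM in the mutant (log2FC 2.07, adjusted P = 0.0265, edgeR). The putative two-component histidine kinase gene NCU09520 was also called higher, with 23.2 and 13.4 CPM against 122 and 113 CPM (log2FC 2.85, adjusted P = 0.0257, edgeR). Both, and the transporter gene NCU09678, were chosen after their values had been seen. Of the 4 members sorted as transporters by keywords, which leave out mdr-7, 1 was called higher. It was NCU09678 of the major facilitator superfamily (log2FC 2.84, adjusted P = 0.0265, edgeR). cdt-2 (NCU08114), with 77.4 and 126 CPM against 228 and 175 CPM, was not called (log2FC 1.11, adjusted P = 0.280, edgeR).

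The lower end of the ranking held members whose higher dark mean in the mutant was not matched after light. NCU10595 had the lowest log2FC, at -1.53 (SE 0.934, adjusted P = 0.397, edgeR). Its wild-type libraries held 37.4 and 165 CPM and the mutant libraries 49.3 and 17.3 CPM, and in the dark mutant 1 library held 137 CPM and the other 28.4 CPM. NCU06864, named after the fission yeast regulator pac2, showed 16.3 and 20 CPM in the wild type and 7.89 and 7.51 CPM in the mutant (log2FC -1.10, adjusted P = 0.506, edgeR). In the dark its mutant libraries held 12.2 and 95.1 CPM. NCU15830 was the third such case, with 9.32 and 93.3 CPM in the dark mutant libraries and a log2FC of -0.89 after light. In each of these 3 genes replicate 2 of the dark mutant carried the high mean by which the gene met the rule. cyp450-19 (NCU08128), a cytochrome P450 gene, and NCU01861, a short-chain dehydrogenase gene, had log2FC of -0.72 and -0.10, and gh47-5 (NCU07067) of -0.03.

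The known genes of conidiation were followed in the same comparison. Of the 13 genes of the list, which were fl, fld, acon-2, acon-3, csp-1, csp-2, rca-1, vib-1, con-6, con-8, con-10, con-13 and eas, 0 were called higher and 1 lower, and their median log2FC was 0.70. The gene called lower was vib-1 (NCU03725), a transcription factor of vegetative incompatibility and protease secretion, with 258 and 108 CPM in light wild-type A15 and 19.2 and 16.5 CPM in the mutant (log2FC -3.19, SE 0.450, adjusted P = 0.0214, edgeR). For fl (NCU08726) the strains overlapped, with 566 and 1517 CPM against 1593 and 1395 CPM (log2FC 0.64, adjusted P = 0.525, edgeR). eas (NCU08457) overlapped as well, with 40721 and 113425 CPM against 103150 and 125295 CPM.

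**Figure D3:**
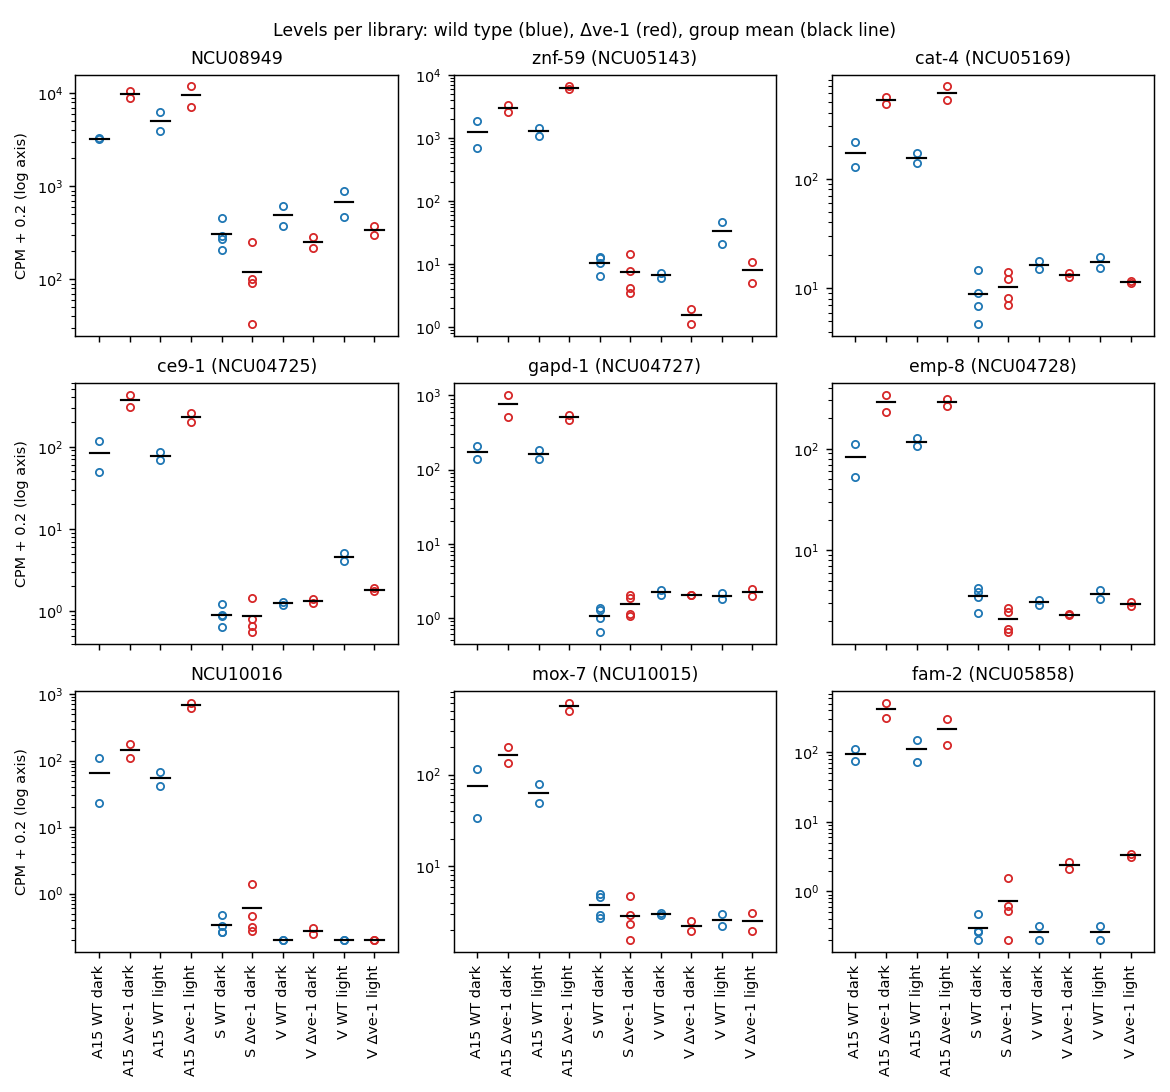
Levels of 9 members in each library, as CPM + 0.2 on a log axis, with the wild type in blue, Δve-1 in red and the group mean as a black line. In A15 after light the mutant lay above the wild type for 8 of the 9, and in fam-2 the groups overlapped. In V, fam-2 was the gene with the mutant far above the wild type, at 1.92 to 3.27 CPM against 0 to 0.122 CPM.

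Mutant tissue from light A15 was also compared with S of the mutant, neither of which the rule had used. All 93 members were above S in each library, as were 46.9% of the 8239 genes tested. The edgeR test called 92 higher, beside 24.9% of all genes tested (20.8% lower, 45.8% in either direction), and 91 passed the stricter rule, beside 10.4%. The exception was NCU06864 (log2FC 1.09, adjusted P = 0.262, edgeR). The median log2FC of the members was 7.06, and it was the same with the 6 members at or under 3 counts in each S library of the mutant set at their bound. For the other aerial genes the median was 4.49, with 159 of 165 called higher. The rule had fixed the same direction for the wild type in the dark. Its criterion on the mutant set the level in dark mutant A15 higher still. A near-complete call after light was therefore close to given by the choice of members and is no independent support. The larger median of the members than of the other aerial genes is also tied to that criterion. Among the members not detected in S of the mutant, NCU05619, picked for its size, was at least 1028-fold higher in light mutant A15 and gh64-2 at least 309-fold, against a floor of 3 counts per library. NCU10016 had a mean of 681 CPM in light mutant A15, and its S libraries held 0.0714 to 1.2 CPM.

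In S itself the members were low in both strains, with medians of 1.55 CPM in the wild type and 1.32 CPM in the mutant. The ratio of mutant to wild type was below 1 for 66 of the 93, with a median log2 of -0.29, and above 1 for 26. These values use the wild-type S libraries of the rule and are given with no test. The 4 mutant S libraries were uneven, since 85 of the 93 members were higher in replicate 2 than in replicate 4.

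V offered a tissue in which none of the libraries had entered the rule, but in which many members were scarce. Group medians were 2.02 CPM in the dark wild type, 1.33 CPM in the dark mutant, and 3.98 and 2.57 CPM after light. Of the 93 members, 79 passed the filter on low counts in V and 14 did not. In the dark, 6 of the 79 were called higher in Δve-1 and 5 lower, beside 3.52% and 6.28% of the 7760 genes tested (9.79% in either direction). The stricter rule called 0 higher, beside 0.116%. The median log2FC of the 79 was -0.53 in the dark, and 59 were below 0. In 44 of the 79 both mutant libraries were below both wild-type libraries and in 11 both were above, beside 27.6% and 24.0% of all genes tested. Leaving out replicate 1 or 2 of the wild type changed the 11 calls to 5 or 1, and leaving out replicate 1 or 2 of the mutant changed them to 2 or 7.

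After light in V, 4 members were called higher in Δve-1 and 11 lower, beside 4.41% and 5.88% of all genes tested (10.3% in either direction). The stricter rule called 0 higher, beside 0.142%. The median log2FC was -0.58, and 57 of the 79 were below 0. For the other aerial genes the median was -0.26, with 13 of 149 called higher and 15 lower. In 40 members (50.6% of 79) both mutant libraries were below both wild-type libraries, beside 24.2% of all genes tested, and in 12 both were above, beside 27.4%. The aerial markers summed to 983 to 1470 CPM in light wild-type V and to 568 to 803 CPM in the mutant, where con-13 was at 0, and their part in these values was not tested. The 15 calls became 29 without replicate 1 of the wild type, 6 without its replicate 2, 3 without replicate 1 of the mutant and 6 without replicate 2. With all 24 libraries in the fit, 0 members were called in dark V and 1 in light V. The median in light V stayed between -0.74 and -0.30 over all the alternatives.

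The members below the wild type in V included several that were above it in A15. NCU09049 had 16.7 and 21.7 CPM in light wild-type V and 5.19 and 7.46 CPM in the mutant, and fell in the mutant (log2FC -1.62, SE 0.243, adjusted P = 0.00448, edgeR). NCU06890, a hypothetical protein gene, was lower in both light conditions. In the dark it held 23.8 and 39.7 CPM in the wild type and 10.7 and 11.9 CPM in the mutant (log2FC -1.52, adjusted P = 0.0125, edgeR). After light it held 36.9 and 45.9 CPM in the wild type and 14.4 and 15.2 CPM in the mutant (log2FC -1.5, adjusted P = 0.0124, edgeR). The call in the dark was lost without replicate 2 of the wild type or either mutant replicate, and that in the light without either mutant replicate (adjusted P = 0.0525 to 0.0996, edgeR). NCU06125 was lower in the dark at 13.8 and 24.0 CPM against 36.2 and 33.1 CPM (log2FC -0.88, adjusted P = 0.0410, edgeR).

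For ce9-1 the strains overlapped in dark V, with 1.10 and 0.973 CPM in the wild type and 1.2 and 1.05 CPM in the mutant. After light the wild type held 3.84 and 4.89 CPM and the mutant 1.69 and 1.55 CPM, and the gene was called lower (log2FC -1.45, SE 0.257, adjusted P = 0.0101, edgeR). That call was lost without replicate 2 of the wild type or either mutant replicate (adjusted P = 0.0589 to 0.0829, edgeR). The neighbours gapd-1 and emp-8 had log2FC of 0.15 and -0.34 after light in V and were not called.

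fam-2 (NCU05858, chromosome VII, 4076847 to 4080943), annotated as a fatty acid oxygenase, the class of enzymes that makes oxylipins, went the other way. Wild-type V held 0 and 0.122 CPM in the dark and 0.120 and 0 CPM after light, at most 2 counts per library. The mutant held 2.45 and 1.92 CPM in the dark and 2.95 and 3.27 CPM after light. Against a floor of 3 counts per library the mutant was at least 12.3-fold higher in the dark and at least 17.6-fold higher after light, and both differences were called (adjusted P = 0.00332 and 0.00186, edgeR). Its neighbour NCU05859, chosen after its values had been seen, was also called higher in V, with 1.31 and 0.822 CPM in the dark mutant against 0.173 and 0.122 CPM in the wild type (adjusted P = 0.0263 in the dark and 0.0252 after light, edgeR). Both fam-2 and NCU05859 passed the filter on low counts in V only through the mutant libraries. Their adjusted P values are therefore no support beyond the levels themselves, and both genes are among the calls in V above. The same limit holds for fxr-4 (NCU05069), which is among the members called lower in V. It passed that filter only through the wild-type libraries, with 1.1 to 6.85 CPM there and 0 to 0.985 CPM in the mutant. NCU06255 was called higher in the dark, with 4.85 and 9.82 CPM against 1.79 and 1.70 CPM (log2FC 2.06, adjusted P = 0.00815, edgeR), and lost the call without either wild-type replicate (adjusted P = 0.0554 and 0.0792, edgeR).

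The difference between the strain effects of the 2 tissues was tested as 1 contrast, which was chosen after the data had been seen: the log2FC of Δve-1 over wild type after light in A15 minus that in V, over the 16 A15 and V libraries. The 14 members that failed the filter in V passed it here through A15 and have next to no V value behind them, so the values are given over the 79 members tested in V. The strain effect was called higher in A15 than in V for 34 of the 79 members and lower for 1, beside 3.58% and 2.94% of the 8271 genes tested (6.52% in either direction), and the median difference of the 79 was 1.96. None of the other 14 was called. The stricter rule called 0 members higher, beside 0.0121%. Of the 149 other aerial genes tested in V, 16 were called higher and 4 lower, with a median of 0.26. The 35 calls became 12 without replicate 2 of light mutant A15, and 7 without replicate 2 of light wild-type V. They became 6 without replicate 1 of light mutant V and 22 without its replicate 2. The difference was above 0 in 73 or 74 of the 79 members under each alternative. A15 and V also differed in age, in medium and, by the study's methods, in temperature. Tissue cannot be told apart from these in the contrast.

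NCU06890 had the smallest adjusted P (difference 4.09, SE 0.501, adjusted P = 0.00192, edgeR), since it was higher in A15 of the mutant by 2.58 and lower in V. It held 182 and 170 CPM in light wild-type A15 and 959 and 938 CPM in the mutant. For NCU09049 the difference was 4.25 (SE 0.544, adjusted P = 0.00197, edgeR), and for cat-4 it was 2.76 (SE 0.363, adjusted P = 0.00218, edgeR). In light V cat-4 held 19.0 and 15.3 CPM in the wild type and 11.1 and 11.6 CPM in the mutant. The member called lower in A15 than in V was fam-2, and since its wild-type V libraries held at most 2 counts its fitted difference of -4.51 depends on the fit's prior count. Its adjusted P of 0.0265 (edgeR) rose above the threshold, to between 0.0503 and 0.145, without replicate 2 of light mutant A15 or without any of the 4 light V libraries.

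**Figure D4:**
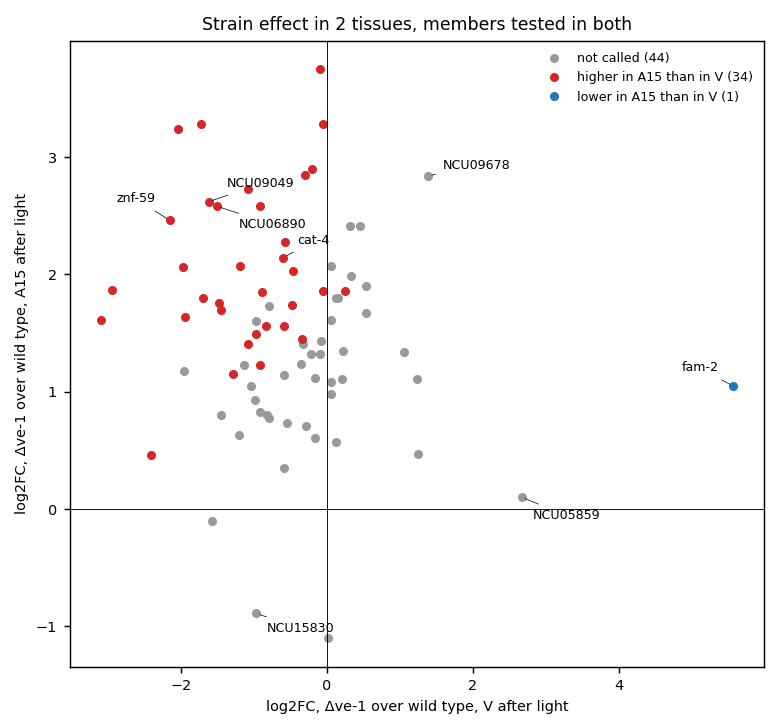
Strain effect after light in V (x axis) and in A15 (y axis) for the 79 members tested in both, as fitted log2FC of Δve-1 over wild type. Red points had a higher strain effect in A15 than in V (34 members), the blue point a lower one (fam-2). Most points lie in the upper left, above 0 in A15 and below 0 in V, and 57 of the 79 members lay below 0 in V.

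Some of the members also responded to light in V mycelia. In the wild type 20 of the 79 members tested were called higher after 30 min of light and 3 lower, beside 7.98% and 7.40% of all genes tested (15.4% in either direction), with a median log2FC of 0.47. In the mutant 14 were called higher and 2 lower, beside 7.07% and 5.73% (12.8% in either direction), with a median of 0.51. The stricter rule called 6 members higher in each strain, beside 1.25% (wild type) and 0.979% (mutant) of all genes. Both strains called 13 members higher, and 21 were called higher in at least 1 of them. Among the 13, NCU08557 passed the filter on low counts in V only through the light libraries. It held 0.109 to 0.486 CPM in dark V and 1.97 to 5.01 CPM in light V. The calls of NCU08557 are therefore no support beyond the levels themselves. The 23 calls in the wild type became 10 and 13 without replicate 1 and 2 of the dark wild type and 13 without replicate 2 of the light wild type. The 16 calls in the mutant became 10 without either dark mutant replicate and 8 without replicate 2 of the light mutant. Among the other aerial genes, 17 and 11 of 149 were called higher in the 2 strains, with medians of -0.03 and -0.15.

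NCU07434, a short-chain dehydrogenase gene on chromosome I (636650 to 638312), had the strongest response. It went from 1.16 and 0.912 CPM to 121 and 140 CPM in the wild type (log2FC 6.99, SE 0.276, adjusted P = 1.62e-06, edgeR) and from 0.545 and 0.868 CPM to 59.8 and 79.3 CPM in the mutant (log2FC 6.60, adjusted P = 2.18e-06, edgeR). NCU06125, hypothetical, went from 36.2 and 33.1 CPM to 643 and 678 CPM in the wild type (log2FC 4.27) and from 13.8 and 24.0 CPM to 425 and 460 CPM in the mutant (log2FC 4.56). The repair gene mus-18 rose by 4.20 and 4.17 on the log2 scale, from 2.08 and 1.95 CPM to 29.8 and 42.4 CPM in the wild type and from 0.872 and 1.42 CPM to 17.7 and 24.1 CPM in the mutant. NCU08727, which lies beside fl on chromosome II, rose from 26.6 and 28.7 CPM to 187 and 206 CPM in the wild type (log2FC 2.85) and from 27.0 and 24.3 CPM to 127 and 103 CPM in the mutant (log2FC 2.16).

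The response to light in V was compared between the strains. In the fit without a replicate block, the edgeR test of the interaction called 0 of 79 members and 0 of 7760 genes, with 2 members and 189 genes at an unadjusted p under 0.05, and DESeq2 also called 0 members. This does not show that the responses were equal. For ce9-1 the log2FC was 2.10 in the wild type, against 0.54 in the mutant. Of the 11 genes of the conidiation list tested in V, 7 were called higher after light in the wild type, against 6 in the mutant, with medians of 2.45 and 2.24. Among them, con-6 (NCU08769) went from 3.70 and 0.486 CPM to 763 and 1023 CPM in the wild type and from 1.69 and 2.60 CPM to 478 and 675 CPM in the mutant.

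The members called higher after light in V were also followed in A15. Of the 21, 15 had a higher mean after light in A15 of the wild type and 19 in the mutant, beside 5251 and 5363 of the 8193 genes tested in A15, with median log2 ratios of 0.28 and 0.92. In the other 72 members the medians were 0.23 and 0.27, with 46 and 45 of them higher after light. For NCU07434 the dark and light A15 libraries were far apart in both strains, at 24.8 and 11.1 CPM against 155 and 157 CPM in the wild type and at 64.7 and 42.9 CPM against 336 and 323 CPM in the mutant. These A15 ratios use the dark libraries of the rule and are given as values, and light and sample code cannot be told apart in them. The strain effect in light A15 had a median log2FC of 1.64 in the 21 light-responsive members, with 6 called, and of 1.44 in the other 72, with 20 called.

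**Figure D5:**
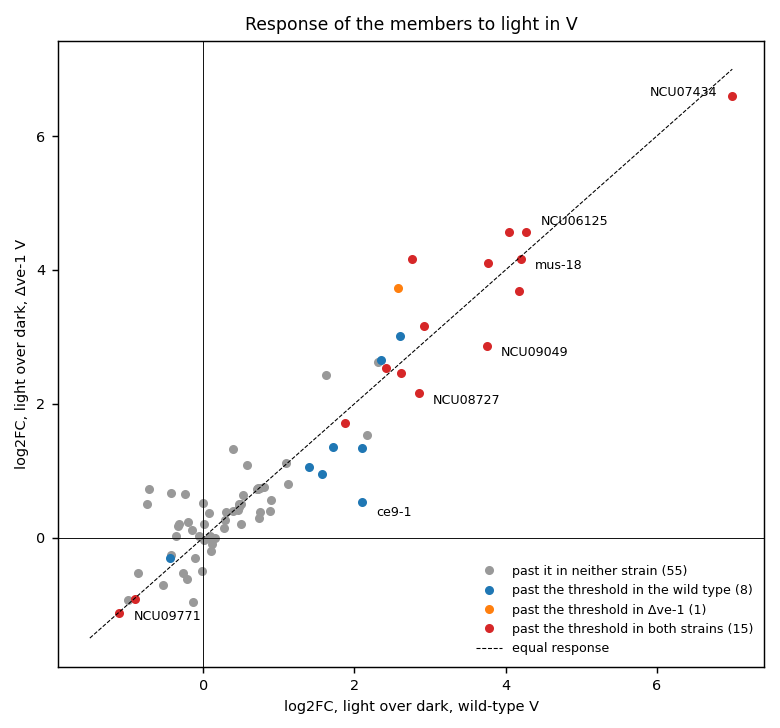
Response of the 79 members tested in V to 30 min of light, as fitted log2FC of light over dark in the wild type (x axis) and in Δve-1 (y axis), with the line of equal response dashed. Colours give the strains in which a member passed an adjusted P of 0.05, with 15 members past it in both. NCU07434 lies at the top right at 6.99 and 6.60, and ce9-1 lies below the line at 2.10 and 0.54.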

How the data were processed

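The authors isolated poly(A) RNA, mapped the reads to the N. crassa OR74A genome (NC12) with TopHat2 (version 2.11 per the labels), checked them with FastQC and AfterQC and counted them over exons by strand in SeqMonk. The deposited file holds raw counts per gene for 24 libraries, and every column matched 1 sample. Gene coordinates are those of the file. Symbols came from RefSeq (NC12) and product texts from the study's gene lists.

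The members were found from CPM by column total. The members, the gene lists and the tests were chosen with earlier results of these data known. Counts were analysed with edgeR 4.0.16 in R 4.3.3 (filterByExpr with a minimum count of 10, TMM, quasi-likelihood F test on group means), with Benjamini-Hochberg adjustment over all genes tested. The 8 A15 libraries, the 8 V libraries and the 16 libraries of A15 and S were fitted apart, each set with 1 estimate of the spread. Dark A15 libraries therefore entered the spread, but not the means, of the comparison after light. Over all genes the median log2FC lay within 0.042 of 0. With library size alone in place of TMM it was -0.17 in A15 after light over the same genes, and the CPM values carry that shift. The scripts were tested on simulated counts.

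Named genes were the members with a RefSeq symbol, the 8 most abundant in light A15, the 5 with the largest and the 5 with the smallest log2FC there, those at the thresholds of the rule, up to 3 called members by smallest P in each comparison in V, and the conidiation list. Others are said to be chosen after their values were seen. DESeq2 1.42.0, other scalings, filters, sets of libraries, a stricter call rule, a replicate block and each library left out were tried. Counting intervals were not used, since the spread between libraries sets the error. No promoter sequence was used here.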

Additional observations from a re-analysis of the deposited data

Results flagged for a closer look

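In 80 sets of 4 S libraries (39 members and the summed CPM of all members, in each strain), 12 had a library whose gap to the nearest of the others was more than 0.829 of the whole range, where chance flags about 1 in 20. Of these, 2 (gh64-2 and gh47-5) held at most 3 counts in any library and 10 held more. In wild-type S these were replicate 2 for gh64-2 (0.0673 CPM, the others at 0), replicate 1 for NCU06864 (3.27 CPM, the others at most 1.61), replicate 1 for gh47-5 (0.128 CPM, the others at 0), replicate 3 for NCU08727 (36 CPM, the others 2.95 to 6.58) and replicate 4 for NCU17244 (2.42 CPM, the others 0.207 to 0.538). In S of the mutant, replicate 1 stood apart for NCU02329 (3.37 CPM, the others 0.0664 to 0.566), NCU06255 (11 CPM, the others 2.46 to 3.84), mkr-4 (30.2 CPM, the others 3.92 to 5.66) and NCU06603 (66.1 CPM, the others 19.3 to 26.8). Replicate 2 of the mutant stood apart for gh18-4 (3.08 CPM, the others 0.532 to 0.714), tdo-4 (5.54 CPM, the others 0.399 to 1.00) and mus-18 (2.96 CPM, the others 1.59 to 1.77).

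The strain effect after light differed between A15 and V for 35 members by the edgeR contrast of the 2 effects, among them NCU06890 (4.09 on the log2 scale), NCU09049 (4.25), cat-4 (2.76) and fam-2 (-4.51). Of the 35, fam-2 was the one whose effect, with its sign, was lower in A15 than in V.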

How the results depend on the processing

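The number of members was 93 and became 141 at 4 times the S level, 31 at 3 times the wild type, 21 with each dark mutant library at least 2 times each dark wild-type library, and 61 to 104 with a dark A15 library left out. The 26 members called higher in A15 after light became 50 with DESeq2, 49 with edgeR on only the groups compared, 0 at the stricter rule (adjusted P under 0.001 and a log2FC of at least 2), and 0 to 9 with a library left out. The counts in either direction in V dark (11) became 18 with DESeq2, 0 with all 24 libraries in the fit, 23 on only the groups compared, 17 with library size only, 0 at the stricter rule and 1 to 7 with a library left out. In V light (15) they became 28, 1 and 6 with DESeq2, all 24 libraries and only the groups compared, 0 at the stricter rule and 3 to 29 with a library left out. For light against dark in V the wild-type count of 23 and the mutant count of 16 became 8 and 6 with all 24 libraries, 6 and 6 at the stricter rule, and 10 to 28 and 8 to 15 with a library left out. The 92 calls of light A15 against S in the mutant were 90 to 92 under every alternative run. The 35 members whose strain effect differed between A15 and V became 12 with all 24 libraries, 0 at the stricter rule and 6 to 33 with a library left out. The cause of these changes was not tested, apart from the fewer libraries and the higher threshold.

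The replicate numbers gave only 2 pairs per comparison, and the deviations of same-numbered libraries correlated at 0.189 in light A15 and at 0.459 to 0.606 in V. These numbers are those of the sample titles, and the sample codes number the light A15 libraries 3 and 4 instead of 1 and 2. The labels do not say what either number marks, so the pairing was not used above. With a replicate block the calls were 24 in light A15, 38 in V dark, 43 in V light, 39 (wild type) and 38 (mutant) for light in V, 1 for the interaction, 92 for light A15 against S and 37 for the difference between A15 and V.

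A library left in an arm of its own was assumed to vary like the other groups. Members near 0 in light A15 changed sign. The value of gh47-5 went to 0.05 with all 24 libraries in the fit. With a library left out NCU01861 ranged from -0.36 to 0.13, gh47-5 from -0.59 to 0.91 (0.11 without replicate 2 of the mutant), cyp450-19 from -1.41 to 0.64 and NCU10595 from -2.35 to 0.00, the highest value of each falling without replicate 2 of the wild type, or for NCU01861 without replicate 1 of the mutant. Over the other values of named members, apart from the stricter call rule, a call was lost in 68, gained in 21 and unchanged in 545. The unchanged values include those called neither in the main fit nor in the alternative. In V, 14 members were too scarce to test.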
